A study of Mus musculus with 16 samples.

Results

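The E2F transcription factors and their DP partners were followed in mouse B cells by the gene symbols E2f1 to E2f8, Tfdp1 and Tfdp2. Of these 10 genes, 8 have a transcript cluster that carries their symbol alone, and those 8 are described here, out of 14860 genes tested. E2f3 and Tfdp1 have no such transcript cluster and are not analysed here. Each of the 8 measured genes has 1 transcript cluster, so no choice between probes was needed. In RefSeq build GRCm38.p6, E2f7 (transcript cluster 6770646) spans chr10:110745439-110787384 and E2f8 (transcript cluster 6967211) spans chr7:48866429-48882073.

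The study profiled 16 samples on expression arrays, 1 array per sample. The groups were 6 Myc-induced B lymphomas of genotype p53(246/-), called p53-246 lymphomas, 6 Myc-induced B lymphomas of genotype p53(-/-), called p53-null lymphomas, 2 samples of normal p53(246/-) B cells and 2 of normal p53(-/-) B cells. All mice were of a C57BL6/129 hybrid background, the lymphoma cells came from lymph nodes and the normal B cells from spleen. In each group at least 1 p53 allele was absent, and samples with 2 wild-type p53 alleles are not analysed here. The labels name Myc as the inducer without the promoter that drives it, give no age, and do not say whether the samples of a group came from separate mice, so a p-value here speaks of these samples only. Tissue of origin and the naming scheme of the arrays follow cell type exactly, so their effects and that of lymphoma cannot be told apart. Trp53 itself, like E2f3 and Tfdp1, is not analysed here, so the genotypes rest on the labels.

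E2F proteins bind the promoters of genes needed for S phase, most of them as dimers with a DP protein. E2F1, E2F2 and E2F3 are the activators of the family, and Rb binds and blocks them until cyclin-dependent kinases phosphorylate it. E2F4 and E2F5 work mainly as repressors with the pocket proteins p107 and p130, E2F6 represses with polycomb proteins and without pocket proteins, and the atypical E2F7 and E2F8 bind DNA without a DP partner and dampen E2F targets late in the cell cycle. E2f1, E2f7 and E2f8 are themselves known as E2F target genes.

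The promoter of E2f7 is shown because E2f7 and E2f8 had the largest rises of the family and E2F-type letters stand close together in it. The letters searched on both strands were TTCCCGC (the first form), TTCGCGC (the second form), TTGCCGC (the third form) and TTGGCGC (the fourth form). The sequence is the 250 bases before the RefSeq start site of E2f7 in build GRCm38.p6 (chr10:110745189-110745438, plus strand), with matches in capitals.
E2f7: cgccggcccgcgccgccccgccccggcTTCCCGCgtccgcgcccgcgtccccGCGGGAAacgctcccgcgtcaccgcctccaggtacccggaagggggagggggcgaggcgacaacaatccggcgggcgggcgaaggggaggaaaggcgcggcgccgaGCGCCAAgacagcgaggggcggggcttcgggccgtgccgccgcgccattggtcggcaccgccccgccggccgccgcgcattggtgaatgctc
For E2f8 the RefSeq window lies inside the annotated span of the gene, so only a stretch of 30 bases around each match is given. The first (chr7:48881689-48881718, minus strand) holds an E2F-type match whose first letters overlap a CCAAT box on the other strand, and the second (chr7:48881599-48881628, minus strand) holds the reverse complement of TTTGAA, the letters of the CHR element found in promoters of mitotic genes.
E2f8, E2F-type match: agaggcgcggaTTGGCGCgcggggccccgg
E2f8, CHR letters: gagcgggttaatTTCAAAtcgggggctgga

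RefSeq windows of 300 bases were at hand for 6 of the 8 measured genes, 8 windows in all. E2F-type letters occurred in 3 of those windows, with 3 matches for E2f7, 1 for E2f8 and 1 for E2f2, the last behind the start site. Of all 32851 windows of the same length 9.57% hold such a match, 17.9% hold TTTGAA and 37.4% hold CCAAT, both strands counted. The windows of E2f1, E2f6 and Tfdp2 and the second window of E2f2 held no E2F-type match. Each of the 8 windows, with or without a match, reaches into or lies within the annotated span of its gene. A match is a description of letters and not a binding site.

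In lymphoma cells against normal B cells, 6 of the 8 measured genes rose and 0 fell, with both genotypes averaged (limma, adjusted p under 0.05 over all genes). Over all 14860 genes 20.4% passed upward and 17.8% downward. The median log2 difference was 0.85 over the 8 genes and -0.09 over all genes. Centring each array on its median moved the median of all genes to 0.01 and the rises with it, to 0.67 for E2f1 and 3.10 for E2f8. The atypical repressors E2f7 and E2f8 rose most, the DP partner Tfdp2 next, then E2f6 and E2f4. The order after E2f7 and E2f8 is not fixed: after quantile normalization Tfdp2 rose by 0.80 and E2f6 by 0.82. E2f1 rose too, from a level near background that leaves its size a lower bound, and E2f2 and E2f5 did not pass. All values below are the deposited ones, read as log2 intensities. A group mean under 5.16, the 95th percentile of the means of 801 olfactory and vomeronasal receptor genes, is called near background.

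**Figure D1:**
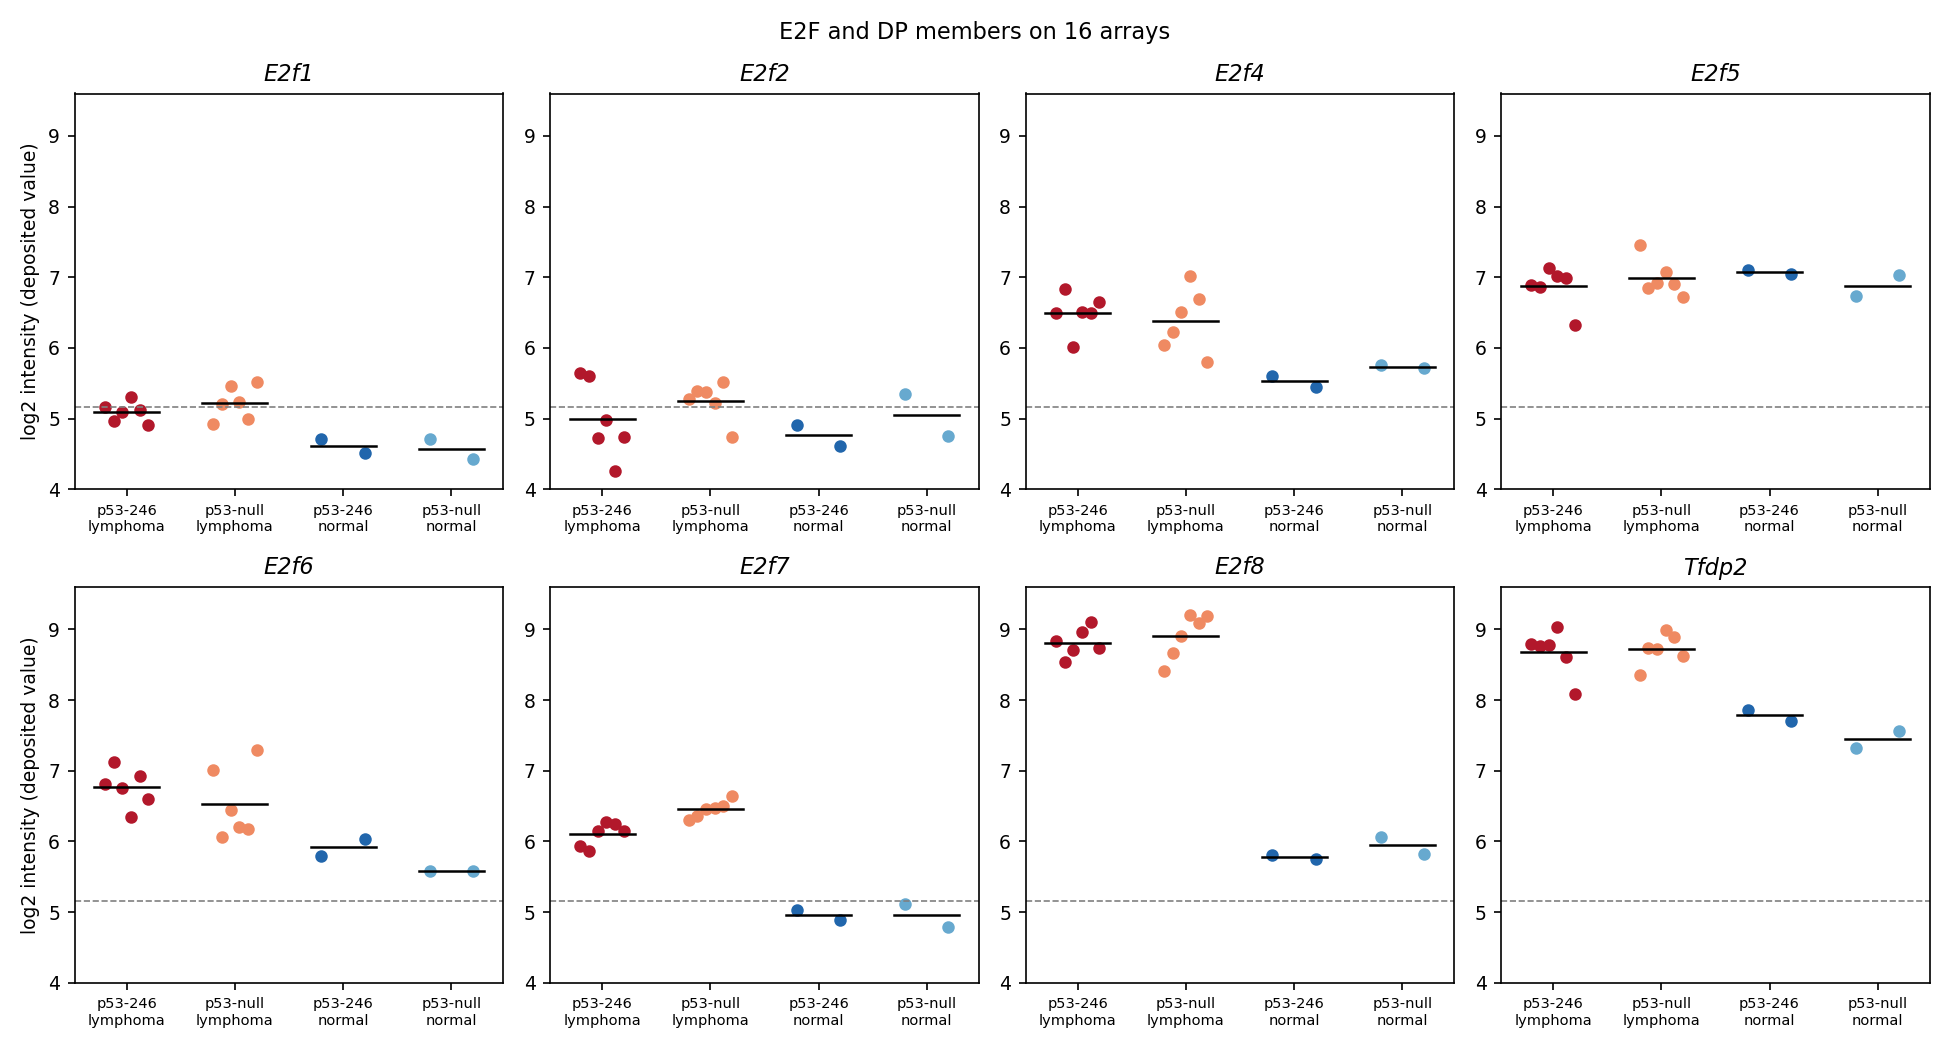
Deposited log2 intensity (vertical axis) of the 8 measured genes on each of the 16 arrays, 1 panel per gene, with a point per array, a black line at each group mean and a dashed line at 5.16, the level under which a group mean is called near background. E2f8 lies between 8.41 and 9.21 in lymphomas, against 5.74 to 6.06 in normal cells, and the lymphoma and normal points of E2f2 and E2f5 overlap.

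E2f8, an atypical E2F that represses E2F targets in late S phase and G2, showed the largest difference. Its lowest, median and highest log2 values were 8.53, 8.78 and 9.10 in p53-246 lymphomas and 8.41, 8.996 and 9.21 in p53-null lymphomas. The normal samples had 5.81 and 5.74 (p53-246) and 6.06 and 5.83 (p53-null). Every lymphoma thus stood above every normal sample, a pattern that 22.3% of all genes share in one direction or the other. The log2 difference was 2.999 (SE 0.14, 7.99-fold, 95% interval 2.70 to 3.30, limma adjusted p = 2.78e-11), which ranks E2f8 at 82 of 14860 genes by p.

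E2f7, the close relative of E2f8 that shares much of its role, was next. Its lowest, median and highest log2 values were 5.87, 6.14 and 6.27 in p53-246 lymphomas and 6.31, 6.47 and 6.64 in p53-null lymphomas. Normal samples had 5.03 and 4.89 (p53-246) and 5.11 and 4.80 (p53-null), near background in both groups. All lymphomas again stood above all normal samples, and since the normal level is near background the rise is read as a lower bound. The rise of E2f7 was 1.32 in log2 units (SE 0.10, 2.501-fold, limma adjusted p = 1.06e-08).

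Tfdp2 encodes DP2, a partner that gives E2F1 to E2F6 their DNA binding. It had 8.09, 8.77 and 9.03 (lowest, median, highest log2 value) in p53-246 lymphomas and 8.35, 8.73 and 8.998 in p53-null lymphomas. Normal samples had 7.86 and 7.71 (p53-246) and 7.32 and 7.57 (p53-null), so the lymphoma and normal values did not overlap. The rise of Tfdp2 was 1.09 in log2 units (SE 0.14, 2.12-fold, limma adjusted p = 8.96e-06).

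E2f6, the polycomb-linked repressor, had lowest, median and highest log2 values of 6.35, 6.79 and 7.13 in p53-246 lymphomas and 6.06, 6.32 and 7.30 in p53-null lymphomas. Normal samples had 5.79 and 6.04 (p53-246) and 5.58 and 5.58 (p53-null). The lymphoma and normal values did not overlap, but the lowest p53-null lymphoma (6.06) lay close to the higher p53-246 normal sample (6.04). On the log2 scale E2f6 rose by 0.90 (SE 0.20, 1.86-fold, limma adjusted p = 0.00126).

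E2f4 is the most widely used pocket protein partner in resting cells. It had 6.02, 6.502 and 6.84 in p53-246 lymphomas and 5.80, 6.36 and 7.01 in p53-null lymphomas (lowest, median, highest log2 value). Normal samples had 5.61 and 5.45 (p53-246) and 5.76 and 5.71 (p53-null). All lymphomas were above all normal samples, the lowest p53-null lymphoma (5.80) by little over the higher p53-null normal sample (5.76). The rise of E2f4 was 0.81 on the log2 scale (SE 0.18, 1.75-fold, limma adjusted p = 0.00143).

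E2f1, the activator named first in the family, had lowest, median and highest log2 values of 4.91, 5.10 and 5.31 in p53-246 lymphomas and 4.92, 5.22 and 5.51 in p53-null lymphomas. Normal samples had 4.71 and 4.51 (p53-246) and 4.71 and 4.43 (p53-null). The lymphomas did not overlap the normal samples, yet the mean was near background in 3 of the 4 groups, and only p53-null lymphomas had a mean above that level (5.22 ± 0.24, SD, n = 6). On the log2 scale E2f1 rose by 0.57 (SE 0.12, 1.48-fold, limma adjusted p = 0.000767), and that size is read as a lower bound, as for E2f7.

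E2f2, the other measured activator, did not pass. It had 4.26, 4.86 and 5.64 in p53-246 lymphomas and 4.74, 5.32 and 5.52 in p53-null lymphomas (lowest, median, highest log2 value), against 4.91 and 4.62 in p53-246 and 5.34 and 4.75 in p53-null normal samples. Lymphoma and normal values overlapped, and 3 of the 4 group means were near background. The log2 difference was 0.22 (SE 0.21, 95% interval -0.24 to 0.67, limma adjusted p = 0.447). It was 0.57 with the replicate number in the fit (limma adjusted p = 0.0919), 0.39 without the 2 arrays of smallest spread, 0.37 without p53-null normal sample 1 and 0.07 without p53-null normal sample 2, so its size is poorly fixed.

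E2f5, the p130 partner, did not pass either, at a level well above background. It had 6.33, 6.94 and 7.14 in p53-246 lymphomas and 6.72, 6.91 and 7.46 in p53-null lymphomas, against 7.10 and 7.05 in p53-246 and 6.73 and 7.03 in p53-null normal samples. The lymphoma range enclosed all normal values. The log2 difference was -0.05 (SE 0.14, limma adjusted p = 0.806), and its 95% interval of -0.35 to 0.25 leaves out differences as large as those of the 6 genes that rose. After quantile normalization the difference of E2f5 was -0.32 (limma adjusted p = 0.0577), close to a downward call.

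Each genotype was also set against its own normal samples. In p53-246 cells 6 of the 8 genes passed upward and 0 downward, where 14.5% of all genes passed upward and 10.6% downward. In p53-null cells 5 of the 8 passed upward and 0 downward, where 17.5% of all genes passed upward and 14.4% downward. Upward calls made up 54.9% of all calls in p53-null cells as deposited, and 66.9% with arrays centred on their medians. E2f8 differed by 3.03 (SE 0.20) in p53-246 and by 2.96 (SE 0.20) in p53-null cells on the log2 scale, and E2f7 by 1.14 (SE 0.14) in p53-246 and 1.503 (SE 0.14) in p53-null cells. Tfdp2 differed by 0.90 (SE 0.20) in p53-246 and 1.28 (SE 0.20) in p53-null cells, and E2f6 by 0.85 (SE 0.28) in p53-246 and 0.95 (SE 0.28) in p53-null cells. E2f4 passed in p53-246 cells (0.97, SE 0.25, limma adjusted p = 0.0078) and missed the threshold in p53-null cells (0.65, SE 0.25, limma adjusted p = 0.0624). The difference of differences passed for 0 of the 8 genes and 0 of all genes (limma, and the unmoderated linear model too), and at an unadjusted p under 0.05 for 0 of the 8 genes and 3.63% of all genes, so no rise was shown to depend on genotype.

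The smaller calls within a genotype hang on single arrays, as only 2 normal samples stand in each. Leaving out p53-246 normal sample 2 left 2 calls in p53-246 cells, E2f7 and E2f8, with limma adjusted p = 0.346 for E2f1, 0.101 for E2f4, 0.101 for E2f6 and 0.058 for Tfdp2. Leaving out p53-null normal sample 2 left 3 calls in p53-null cells, with adjusted p = 0.0743 for E2f1 and 0.0622 for E2f6 (limma). E2f6 in p53-null cells also lost its call without p53-null normal sample 1 (limma adjusted p = 0.102), and in p53-246 cells without p53-246 normal sample 1 (0.260), p53-246 lymphoma 2 (0.0547) or p53-246 lymphoma 5 (0.0539). E2f1 in p53-246 cells lost its call without any 1 of 8 arrays: p53-246 lymphomas 1, 3, 4 or 5, p53-null lymphomas 2 or 4, or either p53-246 normal sample (limma adjusted p = 0.0514 to 0.346). E2f4 in p53-null cells gained a call without p53-null lymphoma 1 (limma adjusted p = 0.0442) or 6 (0.0200).

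**Figure D2:**
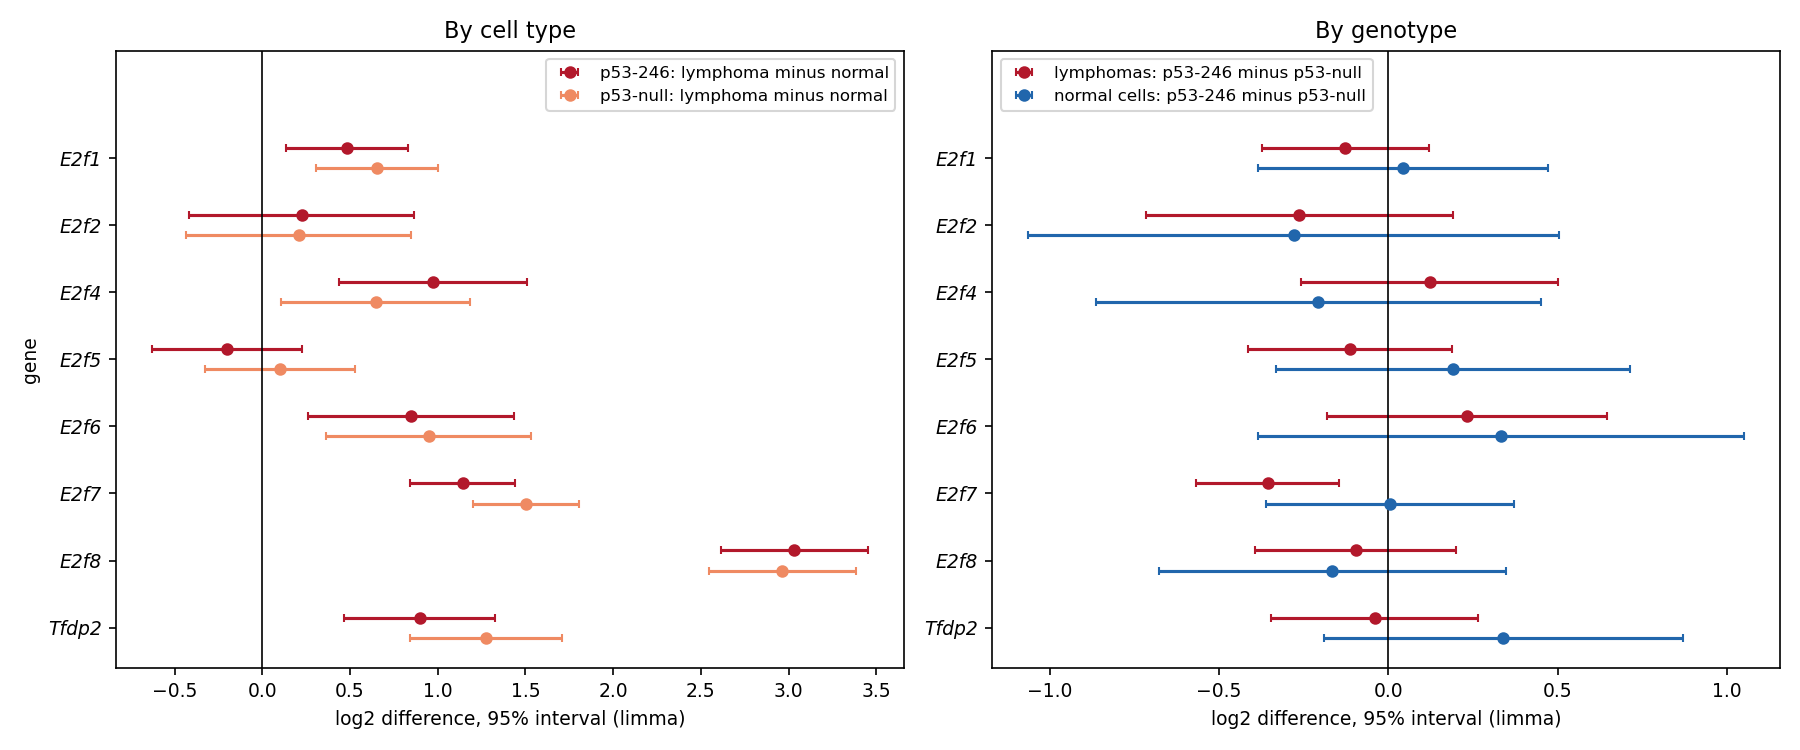
Log2 differences with 95% intervals from limma for the 8 measured genes, by cell type on the left (lymphoma minus normal in each genotype) and by genotype on the right (p53-246 minus p53-null in lymphomas and in normal cells). On the left E2f8 stands near 3.0 in both genotypes, and on the right the interval of E2f7 in lymphomas (-0.57 to -0.15) is the one that does not include 0.

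Between p53-246 and p53-null lymphomas, 0 of the 8 genes passed, as did 0 of all 14860 genes (0% of the table). By unadjusted p under 0.05 in limma 1 of the 8 genes and 445 of all genes (2.99%) stood out, and an unmoderated linear model also called 0 genes. The 1 gene is E2f7. Its values ran between 5.87 and 6.27 in p53-246 lymphomas and between 6.31 and 6.64 in p53-null lymphomas, so that all 6 p53-246 lymphomas were below all 6 p53-null lymphomas. That separation occurs in 14 genes of the table, 0.0942%. Among 14860 genes chance alone would separate some in this way, so the separation by itself does not tie E2f7 to genotype. The means were 6.10 ± 0.17 in p53-246 lymphomas and 6.46 ± 0.12 in p53-null lymphomas (SD, n = 6 each). The log2 difference was -0.36 (SE 0.10, 95% interval -0.57 to -0.15, rank 12 of all genes by p), and its limma adjusted p = 0.994 misses the threshold.

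The gap between the genotypes in E2f7 is narrow, and it closed when arrays were centred on their medians (p53-246 up to 6.40, p53-null down to 6.31) or quantile normalized (p53-246 up to 6.35, p53-null down to 6.33). With arrays scaled to one spread the groups stayed apart (p53-246 up to 6.25, p53-null down to 6.29). In normal cells E2f7 differed by 0.00 (SE 0.17) between the genotypes, near background, and its difference of differences was -0.36 (SE 0.20, limma adjusted p = 0.997).

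The other 7 genes gave intervals that include 0 between the lymphoma genotypes. E2f8 differed by -0.10 (SE 0.14), Tfdp2 by -0.04 (SE 0.14), E2f1 by -0.13 (SE 0.12), E2f5 by -0.11 (SE 0.14), E2f2 by -0.26 (SE 0.21), E2f4 by 0.12 (SE 0.18) and E2f6 by 0.23 (SE 0.20), all with a limma adjusted p = 0.994. Between p53-246 and p53-null normal cells, 2 samples each, 0 of the 8 genes and 0 of all genes passed, with 3.40% of all genes at an unadjusted limma p under 0.05 and 0 calls from the unmoderated model. Values of the 2 normal groups did not overlap in 5 of the 8 genes, against 29.7% of all genes, in a layout of 2 samples against 2. The largest of these normal-cell differences were 0.34 (SE 0.25) for Tfdp2 and 0.33 (SE 0.34) for E2f6.

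The 8 genes varied to different degrees among lymphomas of a genotype. The within-group SD was 0.14 for E2f7, and 7.19% of the 8377 genes had a smaller one, counting genes with at least 1 group mean above background. It was 0.43 for E2f2, above that of 86.1% of those genes, 0.41 for E2f6 (83.6%) and 0.37 for E2f4 (77.7%). E2f8, Tfdp2 and E2f5 lay near the median SD of 0.27, at 0.27, 0.28 and 0.27. In E2f2, p53-246 lymphomas 1 and 2 had 5.64 and 5.60, while the other p53-246 lymphomas had 4.26 to 4.98. Those 2 are the males of that group by the Y-linked gene Eif2s3y, and the males of the p53-null lymphomas, 3 and 6, had 5.37 and 4.74 against 5.22 to 5.52 in the females. With sex in the fit E2f2 passed neither in lymphoma against normal cells nor between the lymphoma genotypes (limma). In E2f6, p53-null lymphomas 1 and 6 had 7.01 and 7.30, while the other p53-null lymphomas had 6.06 to 6.45.

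Among the 12 lymphomas no pair of the 8 genes correlated past the threshold after adjustment over the 28 pairs. The strongest was E2f7 with E2f8 (Pearson r = 0.58, permutation p = 0.0462, adjusted p = 0.634, Spearman rho = 0.57, permutation p = 0.0547, adjusted p = 0.765, n = 12). Within genotypes this pair had r = 0.72 in p53-246 lymphomas and r = 0.87 in p53-null lymphomas, and without the 2 lymphomas farthest from the median of E2f7 it had r = 0.56 (permutation p = 0.0921, n = 10). With arrays scaled to one spread the pair had r = 0.45 (permutation p = 0.138, n = 12). The strongest pair was then E2f2 with E2f8 (r = -0.63, permutation p = 0.028, adjusted p = 0.436, n = 12). Within-genotype values as large occurred in other pairs, on 6 lymphomas each. As deposited, E2f5 with Tfdp2 had r = 0.87 and E2f2 with E2f7 had r = -0.86 in p53-246 lymphomas. E2f1 with E2f8 had r = 0.57 (permutation p = 0.0516, adjusted p = 0.634, rho = 0.59, permutation p = 0.0452, n = 12). With arrays scaled to one spread that pair had r = 0.13 (permutation p = 0.679, n = 12), and -0.43 within p53-246 lymphomas (n = 6). E2f1 with E2f7 had r = 0.54 (permutation p = 0.0680, adjusted p = 0.634, rho = 0.52, permutation p = 0.0892, n = 12), with 0.40 within p53-246 and 0.67 within p53-null lymphomas. Without the 2 lymphomas farthest from the median of E2f1, which also narrows its range, this pair had r = 0.21 (permutation p = 0.556, n = 10). Its r was 0.51 with arrays scaled to one spread (permutation p = 0.0914, n = 12).

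**Figure D3:**
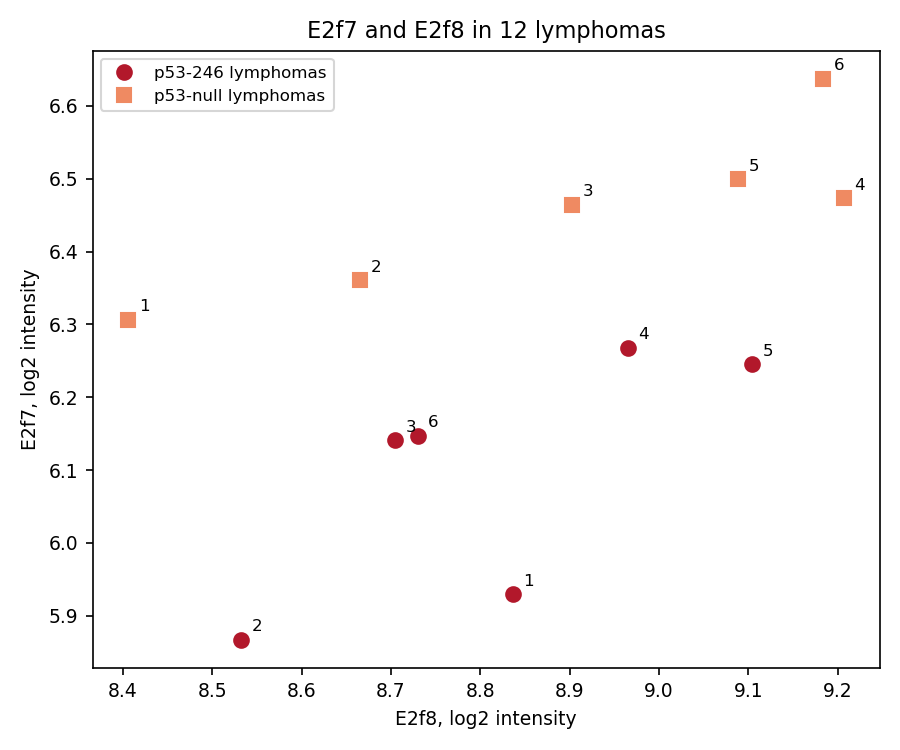
Log2 intensity of E2f7 (vertical axis) against E2f8 (horizontal axis) in the 12 lymphomas, with circles for p53-246 and squares for p53-null lymphomas and the replicate number beside each point. The p53-246 points lie below the p53-null points on the E2f7 axis, and the correlation is 0.58 over all lymphomas, 0.72 within p53-246 and 0.87 within p53-null lymphomas.

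The genes with the pattern most like each of the 3 members that differed by at least 1 were found by the root mean square difference of centred log2 values over all 16 arrays. For E2f8 they were the mitotic cyclin Ccnb2 (0.18), the spindle gene Spag5 (0.20) and the exonuclease gene Exo1 (0.21), which rose by 2.85, 2.78 and 3.16 on the log2 scale. For E2f7 they were Gpn3 (0.12), Akr1a1 (0.15) and Qdpr (0.16), and for Tfdp2 the deubiquitinase gene Usp14 (0.12), the apoptosis inhibitor Api5 (0.13) and the cullin Cul2 (0.13). All 9 genes passed upward in limma, which follows from choosing them by likeness to rising genes over the same arrays. E2f7 stood at rank 672 among the genes nearest to E2f8, with a root mean square difference of 0.75.

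Upstream of the E2Fs, the pocket proteins moved apart. Rb1, the restraint on activator E2Fs, fell by 1.36 on the log2 scale (SE 0.21, limma adjusted p = 4.51e-05), with 7.91 to 9.38 in lymphomas against 10.24 to 10.58 in normal cells. Rbl2, which encodes p130 of resting cells, fell by 1.18 (SE 0.20), with 6.43 to 8.13 in lymphomas against 8.29 to 8.62 in normal cells. Rbl1, which encodes p107 and is itself an E2F target, rose by 1.16 (SE 0.13), with 8.42 to 8.92 in lymphomas against 7.12 to 7.73 in normal cells. None of the 3 ranges overlapped between lymphoma and normal cells, a pattern that 22.3% of all genes share in one direction or the other.

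Of 9 G1 cyclins and kinases 7 rose and 1 fell (median log2 difference 1.82), all in lymphoma against normal cells. Over all genes 20.4% rose and 17.8% fell. Cyclin E2 (Ccne2) rose by 2.98 (SE 0.16), cyclin D1 (Ccnd1) by 2.38 (SE 0.22) and Cdk6, a kinase that phosphorylates Rb, by 1.99 (SE 0.16). Ccnd2 fell by 1.58 (SE 0.28), and Ccnd3 was at -0.24 (SE 0.13, limma adjusted p = 0.164). Of 6 measured CDK inhibitors 3 rose and 1 fell (median 0.29). Cdkn2c, which blocks Cdk4 and Cdk6, rose by 1.72 (SE 0.15) and Cdkn2a of the Arf locus by 1.55 (SE 0.11). Cdkn2a was near background in normal cells and above it in lymphomas. Cdkn2b also rose, by 0.42 (SE 0.11), but was near background in both. Cdkn1b, which encodes p27, fell by 0.78 (SE 0.11).

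The partners that act with E2Fs on chromatin were mixed, where 20.4% of all genes rose and 17.8% fell. These lists are short, and several of their counts lie near those shares. Of 5 measured genes of the MuvB complex, which joins E2F4 and p130 in resting cells and B-Myb in cycling cells, 4 rose and 1 fell (median 0.95): Mybl2, which encodes B-Myb, rose by 1.59 (SE 0.24), at least, since it was near background in normal cells, and the histone chaperone Rbbp4 by 1.05 (SE 0.10). Lin37 fell by 0.46 (SE 0.14, limma adjusted p = 0.0171), a call lost with arrays centred, without the 2 arrays of smallest spread, with sex or the replicate number in the fit, and without p53-246 normal sample 2 or p53-null normal sample 1. Of 8 genes of the polycomb complex of E2F6, 3 rose and 0 fell (median 0.22), with Hdac2 at 1.24 (SE 0.12) and Pcgf6, the subunit specific to that complex, at 1.04 (SE 0.15). Calls downward appear there under other scalings, 2 after quantile normalization and 3 with arrays scaled to one spread. Of 5 coactivators 2 rose and 1 fell (median -0.01): the acetyltransferase Kat2a rose by 1.53 (SE 0.12), Hcfc1 by 0.90 (SE 0.15), and Ep300 fell by 0.70 (SE 0.14). Of 3 genes that mark E2F1 and its relatives for degradation 2 rose (median 0.81), Skp2 by 2.23 (SE 0.15) and the cyclin F gene Ccnf by 0.81 (SE 0.19), and Fzr1 was at 0.13 (SE 0.09, limma adjusted p = 0.291). Ccnf lay between 5.08 and 5.77 in lymphomas against 4.10 to 5.83 in normal cells, where its mean is near background and 1 sample is above every lymphoma. Within p53-null cells 1 of the 3 genes passed upward, against 17.5% of all genes, and within p53-246 cells 2, against 14.5%.

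Genes listed here as G1/S and G2/M targets rose nearly throughout, where 20.4% of all genes rose. Whether E2Fs drive them in these cells was not tested. Of 30 measured G1/S targets 28 rose and 0 fell (median log2 difference 2.29, against -0.09 over all genes), with the largest fitted differences for the checkpoint genes Chek1 (4.22, SE 0.12) and Clspn (3.97, SE 0.14), and the histone mRNA binder Slbp (0.90, SE 0.42) and the repair enzyme Ung (0.27, SE 0.14) did not pass. All 18 measured G2/M targets rose (median 3.14), with the largest fitted differences for the spindle checkpoint kinases Bub1 (4.49, SE 0.12) and Bub1b (4.20, SE 0.12). Clspn and Bub1 were near background in normal cells, so their values are lower bounds. Each of these medians is above the 0.85 of the 8 E2F and DP genes, of which E2f8 had the largest difference, 2.999.

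Of 8 measured targets tied to the apoptotic role of E2F1, 1 rose and 2 fell (median 0.15), where 20.4% of all genes rose and 17.8% fell. The balance turns with scaling: 3 rose and 1 fell with arrays centred, and 2 rose and 2 fell after quantile normalization, with arrays scaled to one spread or with array weights. Casp8ap2 rose by 1.25 (SE 0.16), the stress kinase Map3k5 fell by 3.08 (SE 0.28), and Trp73 fell by 0.25 (SE 0.09, limma adjusted p = 0.0421) near background, a call that other settings end. Apaf1 of the apoptosome was at -0.17 (SE 0.15), and the BH3-only genes Hrk, Bbc3, Pmaip1 and Bcl2l11 at 0.53, 0.21, 0.18 and 0.12, none past the threshold, with Hrk nearest to it (SE 0.21, limma adjusted p = 0.0549). Within p53-null cells Hrk rose by 0.99 (SE 0.30, limma adjusted p = 0.0164), with a mean near background in p53-null normal cells. Normal samples of both genotypes ran from 3.96 to 5.67 (median 5.41), against 5.23 to 6.06 in lymphomas. The size of this rise thus hangs on the lowest normal sample and is poorly fixed. With genotypes averaged, germline genes known to be silenced by E2F6 gave 0 calls in 10 measured genes in limma. At an unadjusted p under 0.05 there were 0, and under each alternative run 0 calls. Within p53-null cells 1 of the 10 had an unadjusted limma p under 0.05 and 0 passed. Of the 10 genes 9 were near background in all 4 groups. That level is judged on group means and does not speak for each lymphoma. Hormad1 reached 8.02 at its highest in lymphomas, where its median was 3.91, against at most 4.48 in normal samples.

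**Figure D4:**
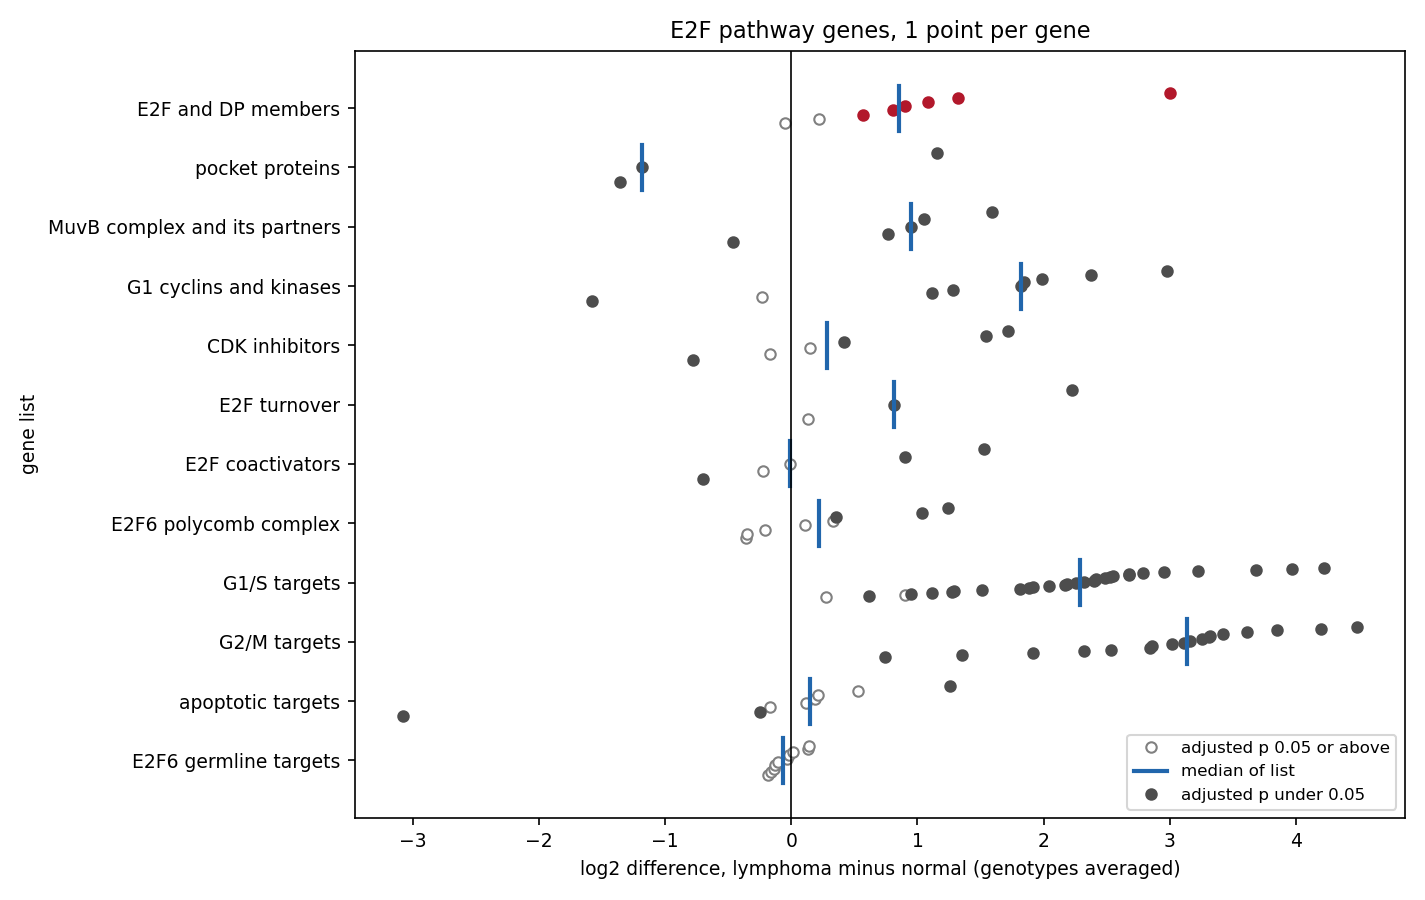
Log2 difference of lymphoma minus normal cells (horizontal axis, genotypes averaged) for each gene of the E2F family (red) and of the lists around it (dark grey), 1 point per gene, filled where the limma adjusted p is under 0.05, with a blue line at each list's median. The medians are 0.85 for the E2F and DP members, 2.29 for G1/S targets and 3.14 for G2/M targets.

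Other measures moved with cell type on the same arrays. The labelled cell type was checked on B cell markers, whose list means were far above background on every array, though 6 of 7 fell in lymphomas, with list means of 8.16 to 9.38 in p53-246 and 8.25 to 9.17 in p53-null lymphomas, against 9.94 to 10.31 in p53-246 and 10.16 to 10.38 in p53-null normal samples. Neutrophil markers rose in 5 of 8, where 20.4% of all genes rose. Their list means were 6.15 to 6.99 in p53-246 and 6.14 to 7.10 in p53-null lymphomas. In normal samples they were 4.59 to 4.87 (p53-246) and 4.77 to 5.69 (p53-null). Camp, Elane and Mpo did not pass, Camp with a difference of 0.28 (SE 0.21, limma adjusted p = 0.323). Of the precursor markers Elane was near background in all 4 groups and Mpo in 3, with a mean of 5.40 in p53-246 normal samples. Natural killer cell markers fell in 4 of 5, macrophage markers in 5 of 6, platelet markers in 4 of 4, T cell markers in 2 of 9 and erythroid markers in 1 of 6, where 17.8% of all genes fell. The part of these cells in the E2F results was not tested, and in such bulk samples fewer cells of a type and less RNA per cell cannot be told apart. The standard deviation over genes was 1.56 on p53-246 lymphoma 6 and 1.57 on p53-null normal sample 1, against 1.69 to 1.94 on the other arrays. Without these 2 arrays the same 6 genes passed in lymphoma against normal cells, namely E2f1, E2f4, E2f6, E2f7, E2f8 and Tfdp2.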

How the data were processed

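The authors deposited 1 table with values for 23332 transcript clusters that run from 2.51 to 13.5 and were taken as log2, because natural logarithms would exceed what an array scanner reads. Log base, probe summary and normalization are not given in the sources used here. Partek 6.5 and build mm8 stand in the submitters' processing notes without a step, and a mixed model ANOVA is named in the design text. Per the labels, B cells were isolated by magnetic depletion and their RNA was amplified with a WT kit.

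Transcript clusters with exactly 1 gene symbol (14996) were used, the brightest per gene, which left 14860 genes. Current symbols came from RefSeq for 14941 of these clusters. Limma 3.58.1 in R 4.3.3 fitted a mean per group to all 16 arrays with moderated variances, and p-values were adjusted by Benjamini-Hochberg over all genes, two-sided, threshold 0.05. Pairs of members were tested over 12 lymphomas with 100000 permutations, two-sided. With 2 members unmeasured, 28 pairs remained. No depth is defined for arrays, and the number of arrays limits the precision. The pipeline was tested on simulated data. Named beside the members are, of each longer list, the 2 largest rises and falls past the threshold, and members of lists of up to 10 genes. The members and lists were chosen with earlier results of these data known.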

Additional observations from a re-analysis of the deposited data

Results flagged for a closer look

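Among the lymphomas of each genotype, 16 sets of 6 values (8 genes in each of the 2 genotypes) were searched for a sample that stands apart, and 1 was found, where chance flags about 1 set in 20. E2f5 in p53-246 lymphoma 6 had a log2 value of 6.33, and its gap to the next p53-246 lymphoma took 0.667 of the group's range, above the limit of 0.625. The same array has the smallest standard deviation over genes of all 16 (1.56).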

How the results depend on the processing

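In lymphoma against normal cells with genotypes averaged, E2f1, E2f4, E2f6, E2f7, E2f8 and Tfdp2 passed, and E2f2 and E2f5 did not, under all 27 alternatives run (11 other settings and 16 fits that leave out 1 array). Over these settings E2f8 ran from 2.75 to 3.10, E2f7 from 1.16 to 1.42 and Tfdp2 from 0.80 to 1.19 on the log2 scale. The uncalled E2f2 ran from 0.07 to 0.57 and the uncalled E2f5 from -0.32 to 0.05. Between the lymphoma genotypes 0 of the 8 genes passed under any of them, and E2f7 ran from -0.40 to -0.29.

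Within a genotype 18 of 216 values lost their call in p53-246 cells and 6 lost and 4 gained one in p53-null cells, with no change of direction among called values. Besides the arrays named above, in p53-246 cells E2f6 lost its call after quantile normalization (adjusted p = 0.0816) and in the unmoderated model (0.0658), and E2f1 when all transcript clusters were tested (0.0584). In p53-null cells E2f6 lost it with array weights (0.156) and without the 2 arrays of smallest spread (0.105), and E2f4 gained one with centred arrays (0.0403) and with a filter on low values (0.0461). The causes were not tested. Leaving out 1 array, the members called numbered 3 to 6 in p53-null and 2 to 6 in p53-246 cells.

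Counts over all genes moved more. In p53-246 cells they were 3738, 6180 with array weights and 2407 to 4508 with 1 array left out, and in p53-null cells 4737 and 2856 to 5676. The genotype difference in normal cells had 0 calls, and 0 to 532 with 1 array left out (4 without p53-246 normal sample 1 and 532 without p53-null normal sample 2). The difference of differences had 0, and 0 to 473 (2 and 473 without the same samples). With genotypes averaged, 3036 genes rose and 2649 fell as deposited, and 3384 and 1964 after centring. Of 594 counts over gene lists 558 stayed within 1.5 times, and 22 of the 36 that moved belong to the apoptotic targets.

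Replicate numbers shared by the genotypes showed no common pairing among lymphomas: same-numbered lymphomas had correlated deviations of -0.31 to 0.33. For normal cells the same check cannot decide, because each genotype has only 2 samples. With the number as a replicate block 4475 genes and the same count of 6 members passed with genotypes averaged. Within p53-246 cells 5 members passed and within p53-null cells 4, E2f1 missing in both (adjusted p = 0.221 and 0.0561). Levels near background limit what can be read from E2f1 and E2f2.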
